A study of Mus musculus with 54 samples.

Results

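The comparison described here sets hematopoietic stem cells (HSC) from mice given dmPGE2 and radiation against HSC from mice given vehicle and radiation, both taken 1 h after radiation. It was formed by name from the merged table of counts, and it uses 16 of its 54 libraries, 8 in each group. All mice were Fgd5 reporter animals of C57BL/6 background, in which HSC carry the green protein ZsGreen from the Fgd5 locus, and each group held males and females. In the first group 1 subcutaneous injection of 16,16-dimethyl prostaglandin E2 (dmPGE2), a long-lived analogue of prostaglandin E2, was given 30 min before 8.53 Gy, a dose stated to kill 50% of mice. The second group had ethanol in saline in its place, before the same dose. The stated 35 µg of dmPGE2 and the stated 3.5 µL of a 0.1 mg/ml solution do not match, since that volume would hold 0.35 µg. A further group used below, with 7 libraries, received dmPGE2 and no radiation and was taken at the same time, and a pair of groups with 8 libraries each received dmPGE2 or vehicle and the same radiation and was taken at 24 h. HSC were sorted from bone marrow by SLAM and LSK surface markers with a widened gate and by the reporter. The design text gives 8 mice a group, so each library is read here as 1 mouse and the tests measure the spread between mice. The columns of 1 h do not name sex and the fit holds no term for it, so differences between sexes are part of that spread.

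Prostaglandin E2 acts on stem cells through the receptors EP2 and EP4, which couple to the stimulatory G protein Gs, raise cAMP and so activate protein kinase A and the transcription factor CREB. Ionizing radiation breaks DNA, and within the first hour cells switch on p53 target genes and genes of NF-kB. dmPGE2 given before radiation is known to raise the survival of irradiated mice and of their blood-forming cells. Genes of p53, of the immediate early response and of NF-kB are used below only as points of reference, and other genes are described in more depth.

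Of 14061 genes tested, 934 were called higher with dmPGE2 (6.64%) and 995 lower (7.08%), where a call is an adjusted p below 0.05. The median log2 fold change over all tested genes was 0.02. At least 2-fold changes were called for 179 genes upwards and 181 downwards. The lowest of the 8 dmPGE2 libraries lay above the highest of the 8 vehicle libraries for 257 genes (1.83%), and the highest dmPGE2 library lay below the lowest vehicle library for 383 genes (2.72%). The first principal component of the 16 libraries, with 20.7% of the variance, separated the groups. Library 3 of the vehicle group stood apart on the second, with 10.9%, and without it 768 genes were called higher and 920 lower. Total counts per library ran from 21085900 to 25384366 with dmPGE2 and from 20437332 to 26217041 with vehicle.

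**Figure D1:**
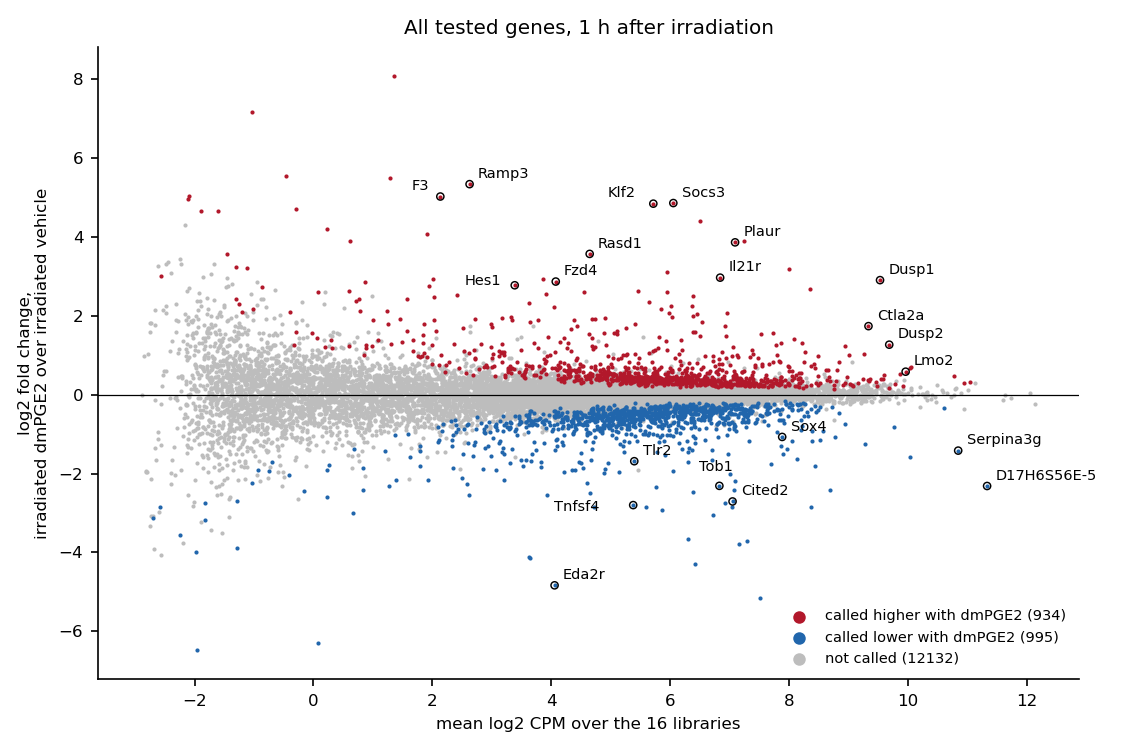
Log2 fold change of irradiated dmPGE2 over irradiated vehicle against mean log2 CPM of the 16 libraries, with 1 point for each of the 14061 tested genes. Red points are the 934 genes called higher, blue points the 995 called lower and grey points the rest, and circles mark genes named in the text.

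Genes that mark HSC were detected in all 16 libraries. The summed level of 14 HSC marker genes, in CPM (read counts scaled to the library's total), had a lowest, median and highest value of 3138, 4316 and 5342 with dmPGE2, against 3825, 4448 and 4841 with vehicle, so the ranges overlapped. Of 8 genes for the sort and the reporter, 1 was called (12.5%), against 13.7% of all tested genes called in either direction. Slamf1, which encodes the sorted surface protein CD150, had a lowest, median and highest level of 45.5, 54.3 and 65.6 CPM with dmPGE2, against 27.1, 33.9 and 44.6 CPM with vehicle, with no overlap (log2 fold change 0.68 ± 0.16, adjusted p = 0.0028). Scaled to total counts alone, the lowest dmPGE2 library had 44.8 CPM and the highest vehicle library 45.4 CPM, so there the groups overlapped. The cells had been gated on CD150. Fgd5, whose locus carries the reporter, had between 69.1 and 102 CPM with dmPGE2 (median 85.99), against 71.4 to 121 CPM with vehicle (median 84.4) (log2 fold change -0.07 ± 0.14, adjusted p = 0.85). Kit, Ly6a, Procr, Cd34, Flt3 and Cd48 were not called either, with adjusted p between 0.099 for Cd34 and 0.81 for Kit. Summed markers of neutrophils had a lowest, median and highest value of 289, 535 and 860 CPM with dmPGE2, against 122, 576 and 1585 CPM with vehicle, and none of the 13 genes was called. No marker was called among 13 genes of monocytes, 4 of B cells, 10 of T and NK cells, 6 of mast cells, 11 of endothelium and 7 of stroma. The sums of all these lists overlapped between the groups, as did those of erythroid, megakaryocyte and dendritic markers, and 4 of 12 erythroid markers had no read in the 16 libraries. Single markers of these last 3 lists were called. Of 11 megakaryocyte markers tested, Rab27b and Gp5 were higher (18.2%) and Itgb3 lower (9.09%), with log2 fold changes of 1.48 ± 0.19, 0.92 ± 0.26 and -1.18 ± 0.36. Of 8 dendritic markers, Irf8 was higher and Zbtb46 lower, 12.5% each way (0.69 ± 0.22 and -1.92 ± 0.32). Among 8 erythroid markers Tspan33 was lower (12.5%, log2 fold change -0.50 ± 0.14). Over all tested genes 6.64% were higher and 7.08% lower. Rab27b and Zbtb46 did not overlap between the groups, and Irf8 lost its call in 6 of the 16 fits that left out 1 library, with adjusted p between 0.0563 and 0.0784. The part of such cells in the results was not tested. In bulk libraries fewer cells of a type and less RNA per cell cannot be told apart.

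Promoters of some called genes are shown first, to place the motifs of CREB, of the serum response factor, of NF-kB and of p53. Genes and motifs were picked by hand, and only promoters that hold the named motif are shown. They do not show how common a motif is, and other strongly changed genes lacked these motifs. Shares over all tested genes are given below the sequences. Each line gives the 250 bases before the start of the RefSeq transcript, the first of 2 for Irf1 (build GRCm38.p6), 5′ to 3′ on the strand of the gene. Capitals mark the motif named on the line.
Nr4a1, higher, short CREB sites, chr15:101266596-101266845, plus strand: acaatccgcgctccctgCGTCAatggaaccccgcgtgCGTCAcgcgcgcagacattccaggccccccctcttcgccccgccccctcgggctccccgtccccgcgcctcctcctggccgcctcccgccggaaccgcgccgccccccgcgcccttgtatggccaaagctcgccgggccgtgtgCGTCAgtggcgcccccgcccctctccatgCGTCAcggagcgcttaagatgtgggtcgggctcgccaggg
Dusp1, higher, CREB full site, chr17:26508473-26508722, minus strand: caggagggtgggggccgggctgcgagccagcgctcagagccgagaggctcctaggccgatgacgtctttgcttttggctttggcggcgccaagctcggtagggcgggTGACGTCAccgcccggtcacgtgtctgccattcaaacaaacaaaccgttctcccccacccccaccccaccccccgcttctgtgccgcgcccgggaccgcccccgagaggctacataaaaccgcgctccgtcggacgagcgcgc
Nkx2-3, higher, short CREB sites, chr19:43612075-43612324, plus strand: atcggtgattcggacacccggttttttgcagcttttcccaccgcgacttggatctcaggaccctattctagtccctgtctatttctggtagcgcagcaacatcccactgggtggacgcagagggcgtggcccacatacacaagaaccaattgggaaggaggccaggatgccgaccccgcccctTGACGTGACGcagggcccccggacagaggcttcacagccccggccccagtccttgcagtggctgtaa
Dusp5, higher, serum response elements, chr19:53528895-53529144, plus strand: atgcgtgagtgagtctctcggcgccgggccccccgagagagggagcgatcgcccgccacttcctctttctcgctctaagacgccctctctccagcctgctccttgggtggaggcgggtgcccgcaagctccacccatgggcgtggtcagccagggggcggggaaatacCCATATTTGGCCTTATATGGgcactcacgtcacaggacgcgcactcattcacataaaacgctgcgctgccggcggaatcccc
Nfkbia, lower, NF-kB site, chr12:55492648-55492897, minus strand: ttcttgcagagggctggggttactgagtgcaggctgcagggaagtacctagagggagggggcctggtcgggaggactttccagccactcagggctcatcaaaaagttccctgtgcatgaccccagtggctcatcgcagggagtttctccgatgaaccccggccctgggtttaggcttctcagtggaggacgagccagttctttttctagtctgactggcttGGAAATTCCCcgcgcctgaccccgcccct
Nfkbie, lower, NF-kB site, chr17:45555450-45555699, plus strand: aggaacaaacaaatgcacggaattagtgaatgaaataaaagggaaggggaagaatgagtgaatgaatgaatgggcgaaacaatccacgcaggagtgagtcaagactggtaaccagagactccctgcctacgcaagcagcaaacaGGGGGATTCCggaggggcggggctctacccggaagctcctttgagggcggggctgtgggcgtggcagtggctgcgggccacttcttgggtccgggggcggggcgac
Irf1, lower, NF-kB site, chr11:53769764-53770013, plus strand: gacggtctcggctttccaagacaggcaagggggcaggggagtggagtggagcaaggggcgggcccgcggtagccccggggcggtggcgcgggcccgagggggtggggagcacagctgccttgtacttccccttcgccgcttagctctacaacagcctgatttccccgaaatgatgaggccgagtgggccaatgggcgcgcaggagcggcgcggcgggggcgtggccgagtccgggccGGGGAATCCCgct
Ccng1, lower, short p53 site, chr11:40755287-40755536, minus strand: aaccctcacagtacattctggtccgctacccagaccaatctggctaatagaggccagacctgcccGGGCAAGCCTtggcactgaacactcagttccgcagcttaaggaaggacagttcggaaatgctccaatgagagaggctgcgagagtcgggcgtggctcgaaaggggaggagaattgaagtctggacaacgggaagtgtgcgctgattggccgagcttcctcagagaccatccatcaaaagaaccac

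Nr4a1, a nuclear receptor induced early by cAMP, had 441, 659 and 993 CPM with dmPGE2 (lowest, median, highest), against 16.3, 29.4 and 186 CPM with vehicle (log2 fold change 3.89 ± 0.41, adjusted p = 4.4e-09), without overlap; vehicle library 3 was the highest of its group, and without it the log2 fold change was 4.67. It had 4 copies of the short CREB site TGACG or its reverse complement in this window, and Nkx2-3, a homeobox factor of HSC, had 2, counted on both strands. Dusp1 had 1 full site TGACGTCA, which holds the short site on both strands. Nfkbie, an inhibitor of NF-kB and its target, had a median of 35.1 CPM with dmPGE2, with libraries between 28.3 and 49.1, against a median of 198 CPM with vehicle, between 149 and 246 (log2 fold change -2.48 ± 0.16, adjusted p = 1.1e-15). Among 10662 tested genes with a promoter in the table, taken as the 250 bases before and 50 after each start, 34.4% held a short site on either strand. The share was 44.3% of the 122 genes that rose at least 2-fold and have a promoter there, and 25.9% of the 147 that fell at least 2-fold. Over all called genes with a promoter the shares lay close together, at 39.9% of the 704 that rose and 38.4% of the 789 that fell. In the genes changed at least 2-fold, the full site was held by 2.46% of the risen and 5.44% of the fallen, against 3.46% of all tested genes. The zinc finger motif of EGR factors, GCGNGGGCG, was in 19.7% of the risen, 10.2% of the fallen and 11.9% of all. The NF-kB site was in 9.02% of the risen, 20.4% of the fallen and 6.35% of all, and the short p53 site in 7.38%, 14.3% and 8.22%. The serum response element was in 4.1%, 2.04% and 1.6%. With all called genes counted, the NF-kB site was in 5.97% of the risen and 8.49% of the fallen, the short p53 site in 9.09% and 9.13%, and the EGR motif in 13.4% and 11%. For the serum response element these shares were 1.56% and 1.65%. The GC box GGGCGG, bound by SP and KLF factors, was in 67.2% and 67.3% of the genes that rose or fell at least 2-fold, in 68.9% and 73.4% of all that rose or fell, and in 67.2% of all tested genes. A match of letters is a description and does not show that a factor was bound.

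The first genes of the route are those that sense PGE2. The list of PGE2 receptors and other Gs-coupled receptors, which also holds the accessory protein Ramp3, had 20 tested members. Of these 3 rose (15%) and 4 fell (20%). Here and in the lists below, such shares are to be read against the 6.64% and 7.08% of all tested genes. Ptger4, which encodes the PGE2 receptor EP4, had between 68.8 and 94.8 CPM with dmPGE2 (median 80.8), against 113 to 197 CPM with vehicle (median 142). Every dmPGE2 library lay below every vehicle library (log2 fold change -0.87 ± 0.15, adjusted p = 3.1e-05). Calcrl, the shared subunit of the CGRP and adrenomedullin receptors, fell as well (log2 fold change -0.70 ± 0.14), with ranges that overlapped. Its partner Ramp3, which turns Calcrl into an adrenomedullin receptor, was the gene with the highest log2 fold change of all called genes whose log2 CPM averaged 2 or more. Ramp3 had 42.6, 51.5 and 113 CPM with dmPGE2 (lowest, median, highest), against 0, 0.2098 and 10.04 CPM with vehicle (log2 fold change 5.33 ± 0.89, adjusted p = 3.7e-05). The groups did not overlap, vehicle library 3 was the highest of its group, and without it the log2 fold change was 7.13. Gpr65, an acid sensor coupled to Gs, had a median of 189 CPM with dmPGE2, with libraries between 157 and 225, against a median of 20.2 CPM with vehicle, between 11.3 and 38.6, again without overlap (log2 fold change 3.10 ± 0.31, adjusted p = 6.7e-10). Both adenosine receptors of the Gs-coupled A2 class were called, in opposite directions: Adora2a rose by 0.69 ± 0.13 on the log2 scale, and Adora2b, at a median of 0.903 CPM with dmPGE2 against 2.43 CPM with vehicle, was lower with overlap (log2 fold change -1.37 ± 0.36, adjusted p = 0.0069).

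Downstream of the receptors, single genes that feed back on cAMP were called. Pde4d, a phosphodiesterase that breaks down cAMP, had between 46.5 and 75.7 CPM with dmPGE2 (median 61.01), against 9.78 to 30.98 CPM with vehicle (median 14.05), with no overlap (log2 fold change 1.94 ± 0.21, adjusted p = 2.5e-09). In its list of 15 phosphodiesterases 2 rose (13.3%) and none fell. The other risen member lost its call without the filter on low counts and in several fits that left out 1 library. Crem, which encodes the cAMP-inducible repressor ICER, had 77.8, 167 and 228 CPM with dmPGE2 (lowest, median, highest), against 7.86, 14.95 and 148 CPM with vehicle. Vehicle library 3 lay within the range of the dmPGE2 libraries and the other vehicle libraries below it. The log2 fold change was 2.18 ± 0.49 with that library and 3.04 without it (adjusted p = 0.0019 with all libraries). Sik1, a kinase induced by CREB that keeps the CREB coactivators out of the nucleus, rose by 1.56 ± 0.31, and Creb1 itself fell (log2 fold change -0.60 ± 0.13). In the CREB and SIK list the counts were 2 higher (14.3%) and 1 lower (7.14%) of 14. Akap12, an anchor of protein kinase A, had a median of 5.64 CPM with dmPGE2, while no vehicle library exceeded 2.72 CPM (adjusted p = 0.013), and vehicle library 8 was the highest of its group: the log2 fold change was 3.88 ± 1.10 with it and 5.22 without it. Rgs2, which shortens signals of G proteins, had a median of 124 CPM with dmPGE2, with libraries between 75.3 and 142, against a median of 16.2 CPM with vehicle, between 13.4 and 32.3, and all dmPGE2 libraries were above all vehicle libraries (log2 fold change 2.61 ± 0.30, adjusted p = 2.1e-08). Rgs1 rose by less (0.98 ± 0.26 on the log2 scale), and of 17 RGS, GRK and arrestin genes 3 rose (17.6%) and none fell.

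**Figure D2:**
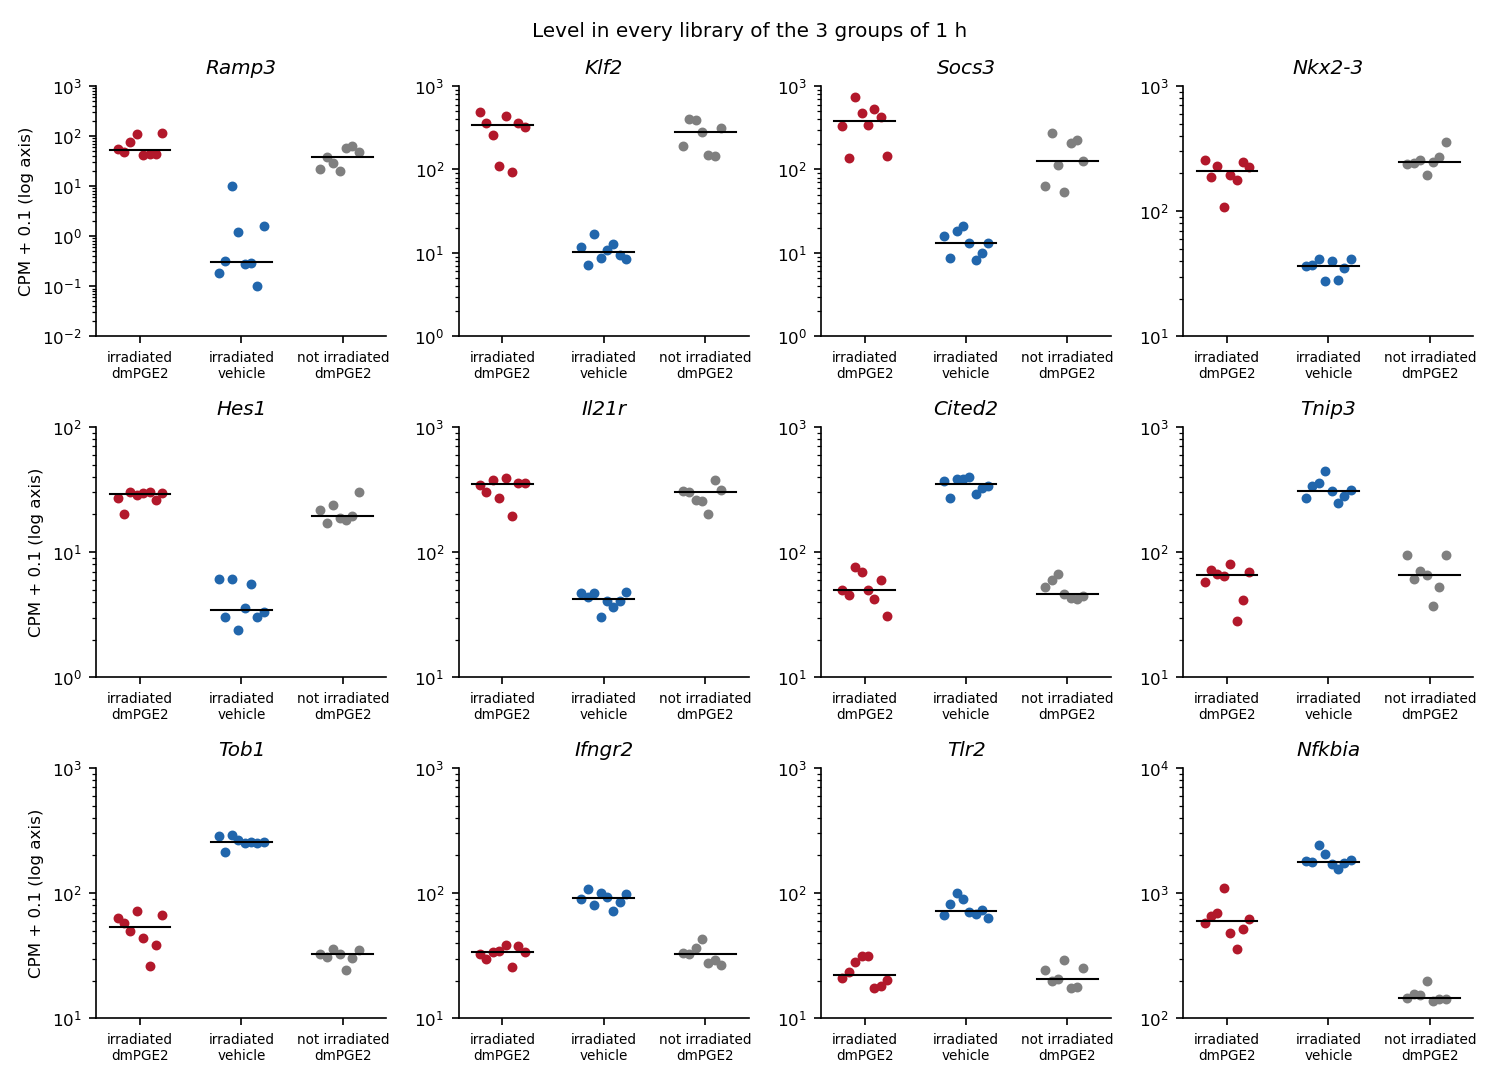
CPM + 0.1 on a log axis in every library of the irradiated dmPGE2 group (red, n = 8), the irradiated vehicle group (blue, n = 8) and the dmPGE2 group without radiation (grey, n = 7), for 12 genes, with a line at each median. Red and blue points do not overlap in any of the 12 panels, and for Nfkbia and Tob1 the red points lie above the grey ones in median.

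The list with brakes of MAP kinase signalling (MAP kinase phosphatases, Sprouty, Spred and RAS-related genes) had 11 of 30 members higher and 3 lower, 36.7% and 10% against the 6.64% and 7.08% of all tested genes, with a median log2 fold change of 0.29. Dusp1, which removes phosphate from p38 and JNK, had between 1000.0 and 3097 CPM with dmPGE2 (median 2282), against 189.8 to 506 CPM with vehicle (median 250.2). The groups did not overlap (log2 fold change 2.90 ± 0.40, adjusted p = 1.1e-06). Dusp5, a nuclear phosphatase for ERK whose promoter above holds a pair of serum response elements, had 109.8, 174 and 228 CPM with dmPGE2 (lowest, median, highest), against 29.1, 38.8 and 84.5 CPM with vehicle, also without overlap (log2 fold change 1.99 ± 0.19, adjusted p = 1.3e-10). Dusp2 and Dusp6, which act on ERK, rose by 1.26 ± 0.14 and 1.09 ± 0.14 on the log2 scale, each with some overlap. Rasd1 and Rasd2, small GTPases of the RAS family that dampen cAMP signals, rose by 3.56 ± 0.53 and 2.92 ± 0.87. Dusp10 and Dusp16, which like Dusp1 act on JNK or p38, fell: Dusp10 had a median of 7.21 CPM with dmPGE2, with libraries between 6.33 and 10.8, against a median of 21.6 CPM with vehicle, between 16.1 and 27.1, without overlap (log2 fold change -1.49 ± 0.22, adjusted p = 2.3e-06), and Dusp16 was lower too (log2 fold change -1.29 ± 0.22). The counts of the list without vehicle library 3 were 12 higher and 2 lower.

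Of 15 Krueppel-like factors, zinc finger proteins that bind GC-rich promoters, 5 rose (33.3%) and 2 fell (13.3%), and the median was 0.40. Klf2, a factor of quiescence in lymphocytes and endothelium, had between 92.1 and 489.7 CPM with dmPGE2 (median 343), against 7.12 to 16.6 CPM with vehicle (median 10.02). All dmPGE2 libraries lay above all vehicle libraries (log2 fold change 4.84 ± 0.70, adjusted p = 3.4e-06). Klf4 was low and rose as well (1.60 ± 0.38 on the log2 scale). Klf5, with 2.01, 3.04 and 4.26 CPM with dmPGE2 (lowest, median, highest), against 3.73, 6.51 and 8.78 CPM with vehicle, fell with some overlap (log2 fold change -1.16 ± 0.26, adjusted p = 0.0017), and so did Klf11 (log2 fold change -0.85 ± 0.24).

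In the Notch list, where ligands on 1 cell trigger cleavage of receptors on the next and switch on HES and HEY repressors, 8 of 29 genes rose (27.6%) and 2 fell (6.9%). The target Hes1 had a median of 28.9 CPM with dmPGE2, with libraries between 20.1 and 30.3, against a median of 3.37 CPM with vehicle, between 2.28 and 6.05. No library overlapped between the groups (log2 fold change 2.77 ± 0.20, adjusted p = 1.0e-13). Nrarp, a target that limits Notch signals, had between 83.4 and 196 CPM with dmPGE2 (median 156), against 18 to 82.1 CPM with vehicle (median 23.4) (log2 fold change 2.26 ± 0.23, adjusted p = 1.3e-09). Hey1 was near the limit of detection with vehicle, at most 0.589 CPM, and had 2.797 to 6.33 CPM with dmPGE2 (adjusted p = 2.0e-04). The ligands Jag1 and Jag2 rose by 1.21 ± 0.40 and 1.55 ± 0.31 on the log2 scale. The call of Jag1 (adjusted p = 0.035) was lost when dmPGE2 library 4 or 8 or vehicle library 2, 5, 6 or 8 was left out, with adjusted p between 0.0557 and 0.0781. Notch1, a receptor, fell (log2 fold change -0.79 ± 0.19), with overlap. The median of the whole list was -0.07. Fzd4, a Wnt receptor of the Frizzled family, had 24.2, 52.4 and 60.3 CPM with dmPGE2 (lowest, median, highest), against 3.49, 6.06 and 9.17 CPM with vehicle, without overlap (log2 fold change 2.86 ± 0.26, adjusted p = 4.1e-11). In the Wnt list 2 of 31 genes rose (6.45%), close to the 6.64% of all tested genes, and none fell. With vehicle library 3 left out, 2 were higher and 1 lower.

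Transcription factors of HSC formed the list with the highest share of risen members among the lists of at least 20: 17 of 46 rose (37%) and 2 fell (4.35%), with a median of 0.25. The MAP kinase list above lay close behind, at 36.7%. Nkx2-3, a homeobox factor, had a median of 209 CPM with dmPGE2, with libraries between 108 and 255, against a median of 36.5 CPM with vehicle, between 27.3 and 41.3. The dmPGE2 libraries all lay above the vehicle libraries (log2 fold change 2.5 ± 0.18, adjusted p = 1.0e-13). Hoxa5, Hoxa9 and Hoxa10, homeobox genes of stem and progenitor cells, rose by 1.95 ± 0.32, 1.02 ± 0.15 and 0.97 ± 0.14 on the log2 scale. Gata2, required for HSC maintenance, had between 431 and 781 CPM with dmPGE2 (median 625.2), against 255 to 433 CPM with vehicle (median 356), and the lowest dmPGE2 library met the highest vehicle library (log2 fold change 0.81 ± 0.12, adjusted p = 2.4e-06). Lmo2 and Tal1, which bind DNA in 1 complex, rose by 0.58 ± 0.08 and 0.61 ± 0.12, Spi1, the myeloid factor PU.1, by 0.52 ± 0.15, and Myb by 0.37 ± 0.10. Cebpb, a factor of emergency myelopoiesis, had 203, 1123 and 1839.7 CPM with dmPGE2 (lowest, median, highest), against 17.8, 121 and 380.1 CPM with vehicle, with overlap (log2 fold change 2.68 ± 0.47, adjusted p = 6.9e-05). Against this direction, Sox4 had a median of 154 CPM with dmPGE2, with libraries between 126 and 208, against a median of 319 CPM with vehicle, between 299 and 437, without overlap (log2 fold change -1.07 ± 0.11, adjusted p = 2.1e-09), and Tcf15, which marks quiescent HSC, fell as well (log2 fold change -0.49 ± 0.14). Egr1, an immediate early gene, is counted among the risen members. Hoxa9, Hoxa10, Gata2, Lmo2, Tal1, Spi1 and Myb were chosen after their values were seen, and 27 members were not called. Without vehicle library 3 the counts were 15 higher and 2 lower. In that fit 12 of 30 members of the MAP kinase list rose, so the order of these lists was reversed.

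**Figure D3:**
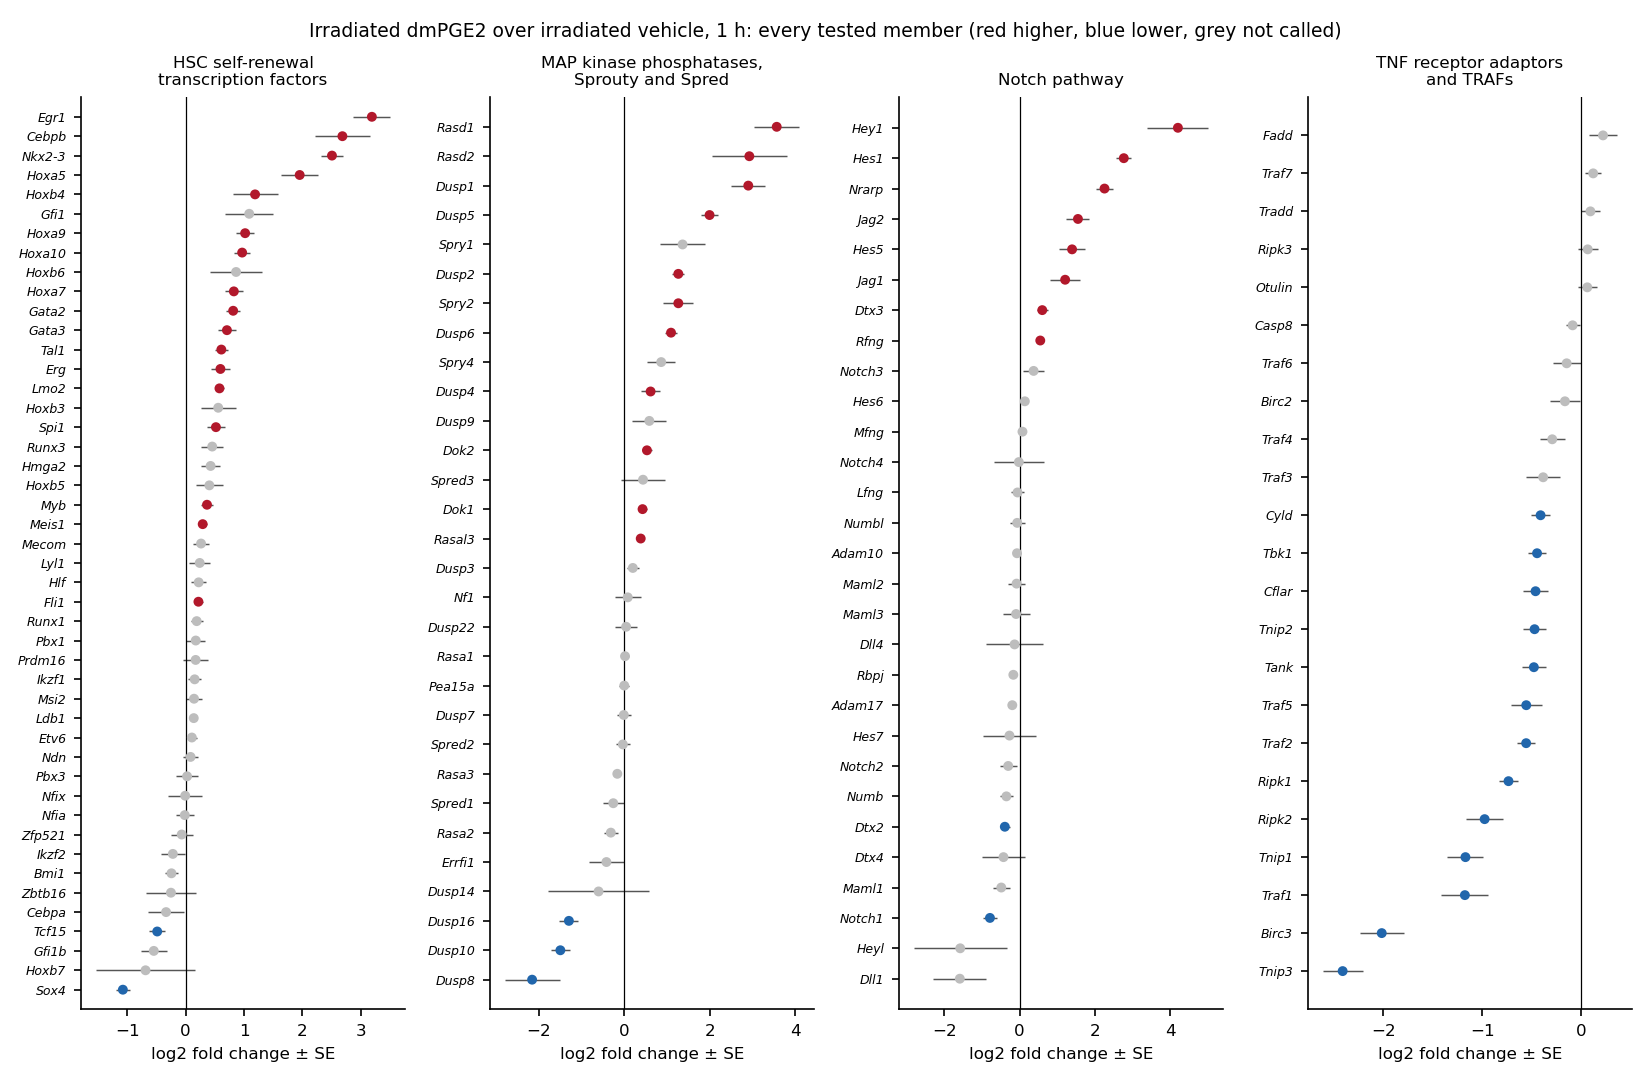
Log2 fold change with its standard error for every tested member of 4 lists, irradiated dmPGE2 over irradiated vehicle at 1 h. Red points were called higher, blue points lower and grey points neither, and the list of TNF receptor adaptors has no red point among its 23 members.

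Surface receptors and their ligands moved in both directions. F3, tissue factor, which starts coagulation, had between 15.1 and 39.7 CPM with dmPGE2 (median 23.9), against 0.136 to 1.42 CPM with vehicle (median 0.722). No vehicle library reached the lowest dmPGE2 library (log2 fold change 5.02 ± 0.72, adjusted p = 1.6e-06). Plaur, the receptor of urokinase, had 378, 557 and 687 CPM with dmPGE2 (lowest, median, highest), against 17.5, 30.3 and 90.7 CPM with vehicle (log2 fold change 3.86 ± 0.34, adjusted p = 6.8e-11), and Thbd, thrombomodulin, rose by 2.52 ± 0.23 on the log2 scale. In the coagulation and plasminogen list 5 of 24 rose (20.8%) and 1 fell (4.17%). S1pr1, the sphingosine 1-phosphate receptor that guides cells out of tissue, had a median of 186 CPM with dmPGE2, with libraries between 127 and 234, against a median of 34.7 CPM with vehicle, between 25.1 and 79.4, without overlap (log2 fold change 2.24 ± 0.26, adjusted p = 1.8e-08). S1pr3, another receptor of the same lipid, had between 2.02 and 9.32 CPM with dmPGE2 (median 4.01), against 10.1 to 30.1 CPM with vehicle (median 20.7) and so lay on the other side (log2 fold change -2.17 ± 0.56, adjusted p = 0.0058). P2ry1, a receptor of ADP, fell by less (log2 fold change -1.50 ± 0.27), and Cxcr4, the homing receptor for Cxcl12, fell by 0.78 on the log2 scale with overlap. P2ry10, a receptor of lysophosphatidylserine, rose by 2.60 ± 0.64, and by 3.34 without vehicle library 3, which was the highest of its group.

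The interferon gamma receptor split between its chains. Ifngr1, the ligand-binding chain, had 541, 808 and 954 CPM with dmPGE2 (lowest, median, highest), against 230.1, 282 and 536 CPM with vehicle (log2 fold change 1.22 ± 0.24, adjusted p = 3.9e-04). Ifngr2, the signalling chain, had a median of 33.5 CPM with dmPGE2, with libraries between 25.4 and 38.2, against a median of 91.5 CPM with vehicle, between 72.2 and 108 (log2 fold change -1.46 ± 0.14, adjusted p = 2.7e-10). Neither chain overlapped between the groups, and they moved in opposite directions. Ifnar1, a chain of the type I interferon receptor, and Il6st, the chain gp130 shared by the IL-6 family, fell as well (log2 fold changes -0.75 ± 0.10 and -0.79 ± 0.18). Il21r, the receptor of IL-21, had between 194 and 390.0 CPM with dmPGE2 (median 351), against 29.96 to 47.7 CPM with vehicle (median 42.3), without overlap (log2 fold change 2.96 ± 0.19, adjusted p = 2.9e-15). Of 43 cytokine receptors, 4 rose (9.3%) and 6 fell (14%). Behind the receptors, Socs3, an inhibitor of JAK kinases bound to gp130, had 136, 383 and 728 CPM with dmPGE2 (lowest, median, highest), against 8.15, 13.1 and 21.2 CPM with vehicle, and every dmPGE2 library was above every vehicle library (log2 fold change 4.85 ± 0.56, adjusted p = 3.7e-08). Socs1, Cish and the kinase Pim3 rose by 1.65 ± 0.17, 0.63 ± 0.15 and 0.73 ± 0.09 on the log2 scale. Socs5, by contrast, fell (log2 fold change -1.24 ± 0.10), and the list of 32 JAK and STAT genes had 5 higher (15.6%) and 4 lower (12.5%). Among 28 growth factors 3 rose (10.7%) and 1 fell (3.57%). Of the risen, Vegfa had a median of 186 CPM with dmPGE2, with libraries between 142 and 220.5, against a median of 46.1 CPM with vehicle, between 33.96 and 77.3 (log2 fold change 1.83 ± 0.22, adjusted p = 3.7e-08), Osm rose by 1.93 ± 0.30 and Hbegf by 1.83 ± 0.25.

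Adaptors of TNF receptors formed the list with the largest share of fallen members in the plot of lists: 13 of 23 fell (56.5%), none rose, and the median was -0.45. NF-kB drives several of its members, and the list overlaps in theme with the NF-kB genes set aside above. Tnip3, an inhibitor of NF-kB that binds ubiquitin, had between 27.9 and 80.2 CPM with dmPGE2 (median 65.5), against 246 to 444 CPM with vehicle (median 310.1) (log2 fold change -2.41 ± 0.20, adjusted p = 5.8e-12). Birc3, a ubiquitin ligase of the receptor complex, had 46.3, 64.2 and 99.8 CPM with dmPGE2 (lowest, median, highest), against 179, 243 and 409 CPM with vehicle (log2 fold change -2.01 ± 0.22, adjusted p = 8.6e-09). In both genes the groups were apart. Traf1, Tnip1, Ripk1 and Traf2 had log2 fold changes of -1.17 ± 0.24, -1.17 ± 0.18, -0.73 ± 0.09 and -0.56 ± 0.09. Above these adaptors, 5 of 35 TNF ligands and receptors fell and 5 rose (14.3% each way). Eda2r, a receptor of ectodysplasin A2 and a p53 target, had a median of 3.503 CPM with dmPGE2, with libraries between 1.15 and 6.79, against a median of 87.5 CPM with vehicle, between 68.7 and 146, the lowest log2 fold change of the family (log2 fold change -4.83 ± 0.32, adjusted p = 1.3e-14). Tnfsf4, the ligand OX40L, had between 7.2 and 33.1 CPM with dmPGE2 (median 15.5), against 96.1 to 163 CPM with vehicle (median 112) (log2 fold change -2.80 ± 0.18, adjusted p = 2.9e-15), and the death receptor Fas and the ligand Ltb fell too (log2 fold changes -1.89 ± 0.23 and -1.80 ± 0.30). Tnfrsf1b, the receptor TNFR2, rose by 0.79 ± 0.11 on the log2 scale.

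Of 35 interferon regulatory factors and sensors of microbes and nucleic acids, 7 fell (20%), 1 rose (2.86%) and 27 were not called. Tlr2, a receptor for bacterial lipoproteins, had 17.3, 22.03 and 31.3 CPM with dmPGE2 (lowest, median, highest), against 63.8, 71.4 and 100.4 CPM with vehicle, without overlap (log2 fold change -1.69 ± 0.14, adjusted p = 1.4e-12). Irf1 and Irf9, factors of the interferon response, and Tmem173, which encodes STING, had log2 fold changes of -1.26 ± 0.17, -0.71 ± 0.11 and -0.67 ± 0.15.

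**Figure D4:**
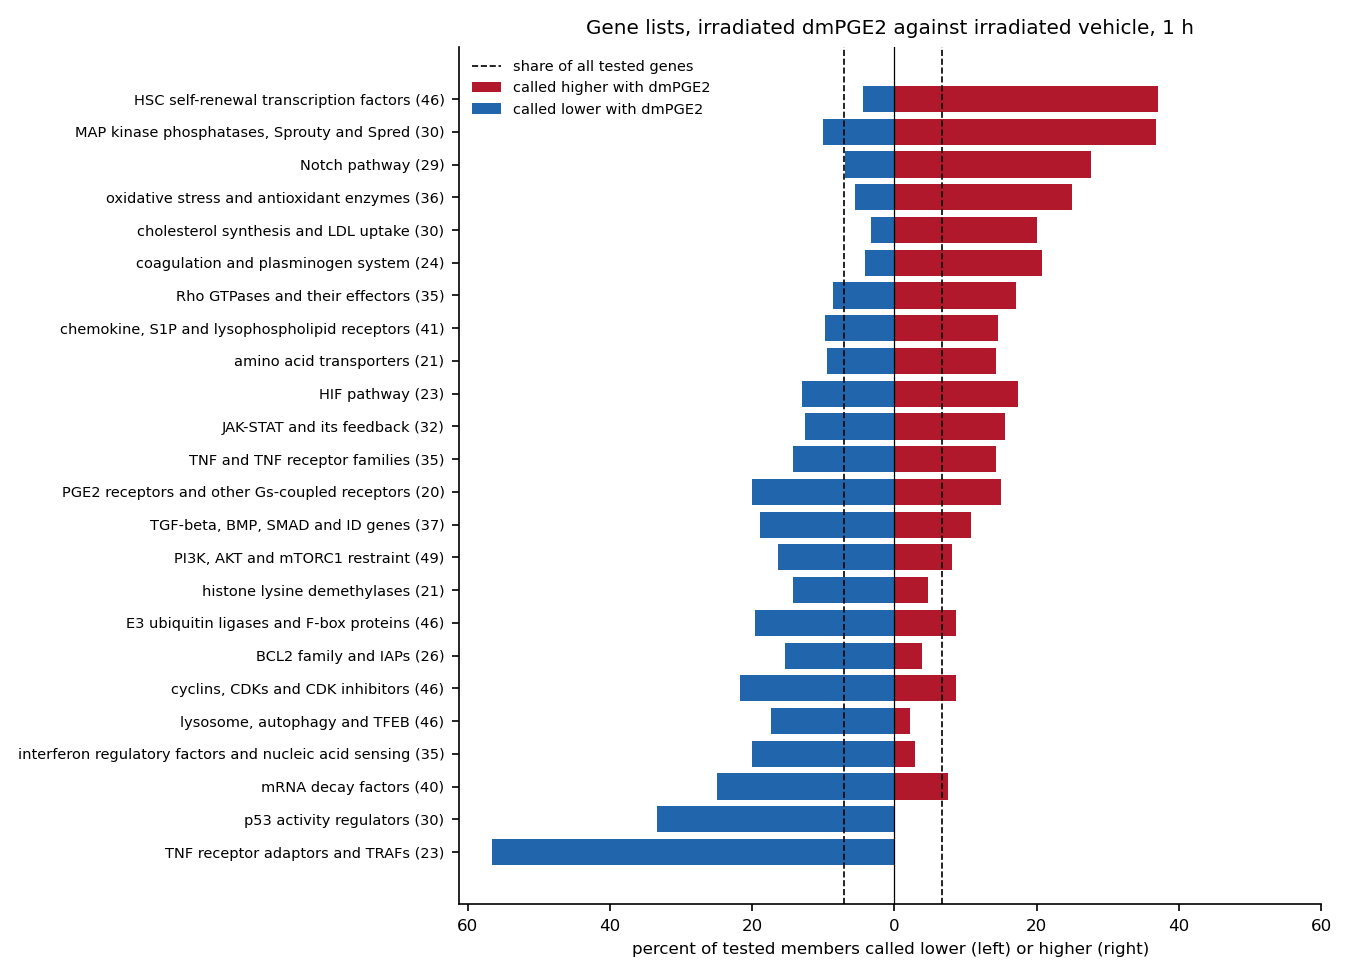
Percent of tested members called higher (red, to the right) and lower (blue, to the left) in 24 gene lists, irradiated dmPGE2 against irradiated vehicle at 1 h, with the number tested in brackets. Shown are the lists with the largest called share in either direction among those with at least 20 tested members. Lists with smaller shares are left out, so the plot does not show the typical list. Dashed lines give the shares of all tested genes, 6.64% and 7.08%, and the HSC transcription factors at the top and the TNF receptor adaptors at the bottom go farthest beyond them. The MAP kinase list lies close to the HSC factors (36.7% and 37% risen), and without vehicle library 3 their order was reversed.

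Genes that control RNA moved in both directions. Of 40 factors of mRNA decay 10 fell (25%) and 3 rose (7.5%). Tob1, which recruits the CCR4-NOT deadenylase, had a median of 53.8 CPM with dmPGE2, with libraries between 25.9 and 71.96, against a median of 256 CPM with vehicle, between 213 and 291 (log2 fold change -2.31 ± 0.16, adjusted p = 9.8e-15), and the highest dmPGE2 library was far below the lowest vehicle library. Rc3h1, the repressor Roquin, and Zfp36l1, which binds AU-rich elements, had log2 fold changes of -0.90 ± 0.17 and -0.84 ± 0.15. Its close relative Zfp36l2 rose (0.53 ± 0.12 on the log2 scale), with overlap. Among 37 splicing genes 5 rose (13.5%) and 4 fell (10.8%), and only risen ones are described here. The SR protein Srsf5 had between 367 and 615 CPM with dmPGE2 (median 437), against 133 to 244 CPM with vehicle (median 202) (log2 fold change 1.32 ± 0.19, adjusted p = 1.5e-06). Cirbp, an RNA-binding protein induced by cold, and the kinase Clk3 rose by 1.19 ± 0.27 and 0.62 ± 0.13.

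Of 46 genes of lysosome and autophagy 8 fell (17.4%) and 1 rose (7 and 0 without vehicle library 3), with Tfe3, a master factor of lysosomal genes, at a log2 fold change of -1.02 ± 0.14 and Ulk1, the kinase that starts autophagy, at -0.93 ± 0.20. Flcn, which acts on mTORC1 and TFE3 at the lysosome, had 108, 122 and 143 CPM with dmPGE2 (lowest, median, highest), against 180.1, 197 and 232 CPM with vehicle, without overlap (log2 fold change -0.70 ± 0.09, adjusted p = 6.0e-08). Herpud1, a gene of the unfolded protein response, had a median of 176 CPM with dmPGE2, with libraries between 146 and 222, against a median of 374 CPM with vehicle, between 331 and 539, and again no library overlapped (log2 fold change -1.17 ± 0.08, adjusted p = 5.0e-14). Peli1, a ubiquitin ligase of Toll-like receptor signalling, fell by 1.03 on the log2 scale. Of 44 histone methyltransferases and Polycomb genes 5 fell and none rose, 11.4% against the 7.08% of all tested genes that fell, among them Cbx7, Rnf2 and Eed of the Polycomb complexes (log2 fold changes -0.89 ± 0.18, -0.67 ± 0.11 and -0.73 ± 0.09). Kdm2a, a histone demethylase, had between 86.5 and 99.8 CPM with dmPGE2 (median 93.6), against 137 to 214 CPM with vehicle (median 169) (log2 fold change -0.87 ± 0.09, adjusted p = 3.1e-09).

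Single genes of metabolism changed in both directions. Hk2, hexokinase 2, had 209, 255 and 339.7 CPM with dmPGE2 (lowest, median, highest), against 36.6, 61.9 and 81.2 CPM with vehicle, with no overlap (log2 fold change 2.07 ± 0.22, adjusted p = 4.4e-09). Of 36 genes of glucose transport and glycolysis 3 rose (8.33%) and 1 fell (2.78%). In the HIF list 4 of 23 rose (17.4%) and 3 fell (13%). Egln3, an oxygen sensor that marks HIF for breakdown, had a median of 126 CPM with dmPGE2, with libraries between 76.7 and 163, against a median of 16.3 CPM with vehicle, between 13.1 and 81.2 (log2 fold change 2.34 ± 0.27, adjusted p = 2.0e-08), where vehicle library 3 lay within the dmPGE2 range. Cited2, which competes with HIF for its coactivator, had between 30.7 and 75.8 CPM with dmPGE2 (median 49.6), against 271 to 398 CPM with vehicle (median 352), without overlap (log2 fold change -2.71 ± 0.14, adjusted p = 3.8e-18). Hif3a, an inhibitory HIF subunit, fell as well (log2 fold change -2.25 ± 0.28), and so did Pdk4, which inhibits pyruvate dehydrogenase (-1.86 ± 0.43). Slc3a2, the heavy chain of amino acid exchangers, had 359, 402 and 437 CPM with dmPGE2 (lowest, median, highest), against 209, 231 and 238 CPM with vehicle (log2 fold change 0.83 ± 0.08, adjusted p = 4.0e-10), and its partner Slc7a11, which imports cystine, rose at a low level (log2 fold change 2.12 ± 0.54). Slc38a2, a transporter of neutral amino acids, had a median of 238 CPM with dmPGE2, with libraries between 218 and 292, against a median of 554 CPM with vehicle, between 471 and 593 (log2 fold change -1.14 ± 0.09, adjusted p = 1.6e-12). Both genes were without overlap, in opposite directions. Of 30 genes of cholesterol synthesis and LDL uptake 6 rose (20%) and 1 fell (3.33%), with 3 and 0 when vehicle library 3 was left out. None of 22 genes of fatty acid oxidation and none of 8 of the pentose phosphate pathway was called.

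Genes of redox control had 9 of 36 members higher (25%) and 2 lower (5.56%). Foxo3, a factor of HSC maintenance and antioxidant genes, and Bach1, a repressor of them, rose by 0.72 ± 0.19 and 0.70 ± 0.18 on the log2 scale. Nfe2l2, which encodes NRF2, had between 116 and 189 CPM with dmPGE2 (median 140.2), against 284 to 465.7 CPM with vehicle (median 364), without overlap (log2 fold change -1.30 ± 0.10, adjusted p = 2.2e-13). In the list of PI3K, AKT and mTORC1 restraint 4 of 49 rose (8.16%) and 8 fell (16.3%). Its largest falls were those of Phlda3, Ddit4l and Sesn2 (log2 fold changes -4.30, -4.12 and -3.79). Trib1, a pseudokinase that binds the ligase COP1, had 23.1, 38.4 and 46.3 CPM with dmPGE2 (lowest, median, highest), against 6.12, 6.93 and 11.4 CPM with vehicle (log2 fold change 2.22 ± 0.26, adjusted p = 1.7e-08), and Sgk1, a kinase related to AKT, rose by 1.97 ± 0.28 with overlap. Of 46 cyclins, CDKs and CDK inhibitors 4 rose (8.7%) and 10 fell (21.7%). Ccng1, cyclin G1, a p53 target with a short p53 site in the promoter shown above, had a median of 193 CPM with dmPGE2, with libraries between 105 and 256, against a median of 947 CPM with vehicle, between 839 and 1133 (log2 fold change -2.41 ± 0.13, adjusted p = 1.4e-17), and Cdkn2d, the CDK inhibitor p19, had between 106 and 139.7 CPM with dmPGE2 (median 117), against 34.3 to 69.4 CPM with vehicle (median 44.2) (log2 fold change 1.38 ± 0.17, adjusted p = 5.7e-08). Both were without overlap. The small GTPases Rhob, induced by DNA damage, and Rhoh, of blood cells, moved in opposite directions (log2 fold changes -1.66 ± 0.19 and 0.75 ± 0.10).

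Of TGF-beta, BMP, SMAD and ID genes, 4 of 37 rose (10.8%) and 7 fell (18.9%). Smad7, the inhibitory SMAD, had 38.5, 63.4 and 78.5 CPM with dmPGE2 (lowest, median, highest), against 12.2, 19.2 and 32.6 CPM with vehicle (log2 fold change 1.62 ± 0.26, adjusted p = 1.7e-05). Bambi, a decoy receptor, had a median of 39.4 CPM with dmPGE2, with libraries between 32.5 and 44.5, against a median of 18.01 CPM with vehicle, between 13.7 and 20.8 (log2 fold change 1.16 ± 0.17, adjusted p = 3.4e-06), and Skil, a corepressor of SMADs, rose by 0.99 ± 0.27. The first 2 of these did not overlap between the groups. Tgif1, another corepressor, fell (log2 fold change -0.86 ± 0.13), without overlap.

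Some abundant genes lay outside these lists. D17H6S56E-5 had between 823 and 1619.7 CPM with dmPGE2 (median 1117), against 4882 to 7000.4 CPM with vehicle (median 5543), without overlap (log2 fold change -2.32 ± 0.16, adjusted p = 2.6e-14). Serpina3g, an inhibitor of proteases, had 748, 1116 and 1701 CPM with dmPGE2 (lowest, median, highest), against 1809, 3164 and 4394 CPM with vehicle (log2 fold change -1.42 ± 0.16, adjusted p = 6.3e-09), and Rsrp1 had a median of 45.6 CPM with dmPGE2, with libraries between 23.02 and 111, against a median of 312 CPM with vehicle, between 215 and 466.1 (log2 fold change -2.74 ± 0.32, adjusted p = 4.3e-08). Ctla2a, an inhibitor of cathepsins, had between 765 and 2577 CPM with dmPGE2 (median 1119), against 284 to 522 CPM with vehicle (median 331) (log2 fold change 1.73 ± 0.33, adjusted p = 2.0e-04). Serpina3g and Ctla2a have near-identical neighbours that can share reads, so their values are uncertain. Gpr146, an orphan receptor, had 108, 158 and 192 CPM with dmPGE2 (lowest, median, highest), against 20.5, 24.4 and 38.5 CPM with vehicle (log2 fold change 2.60 ± 0.24, adjusted p = 9.2e-11). Metrnl, a secreted protein, Htr2a, a serotonin receptor, and Adamts1, a secreted protease, rose by 2.07 ± 0.30, 1.91 ± 0.37 and 2.92 ± 0.66 on the log2 scale. None of the vehicle libraries reached a dmPGE2 library for these last 4 genes. Counts carry no strand: 7.21% of the exon bases of Ramp3 and 7.83% of those of Rasd1 lie over a gene of the opposite strand.

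At 24 h, in other mice, 1622 genes were called higher with dmPGE2 than with vehicle after radiation (11.5%) and 1415 lower (10.1%). Of the 934 genes higher at 1 h, 159 were also higher at 24 h, which is 17% of the list of 1 h and 9.8% of that of 24 h, and 142 were lower at 24 h, 15.2% and 10%. Of the 995 genes lower at 1 h, 45 were lower at 24 h, 4.52% and 3.18% of the lists, and 138 were higher, 13.9% and 8.51%. The difference between the times was called for 3313 genes of all tested (23.6%). Among the 15 highest and 15 lowest called genes of 1 h with a log2 CPM averaging 2 or more it was called for 25, and the 5 others were Ramp3, Socs3, Klf2, Rasd1 and Rasd2. Socs3 had a log2 fold change of 4.85 ± 0.56 at 1 h and 3.89 ± 0.54 at 24 h, Klf2 4.84 ± 0.70 and 3.29 ± 0.68, Ramp3 5.33 ± 0.89 and 4.42 ± 1.17, and Rasd1 3.56 ± 0.53 and 3.08 ± 0.53. Rasd2 had 2.92 ± 0.87 at 1 h and 0.48 ± 0.87 at 24 h, and the difference was not called (adjusted p = 0.14). Il21r had 2.96 ± 0.19 at 1 h and -0.32 ± 0.18 at 24 h, and the difference was called (adjusted p = 2.1e-12). Eda2r had -4.83 ± 0.32 and -0.24 ± 0.27 (adjusted p of the difference 8.4e-11). These genes were picked for their size at 1 h, so a smaller value at 24 h is a description.

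**Figure D5:**
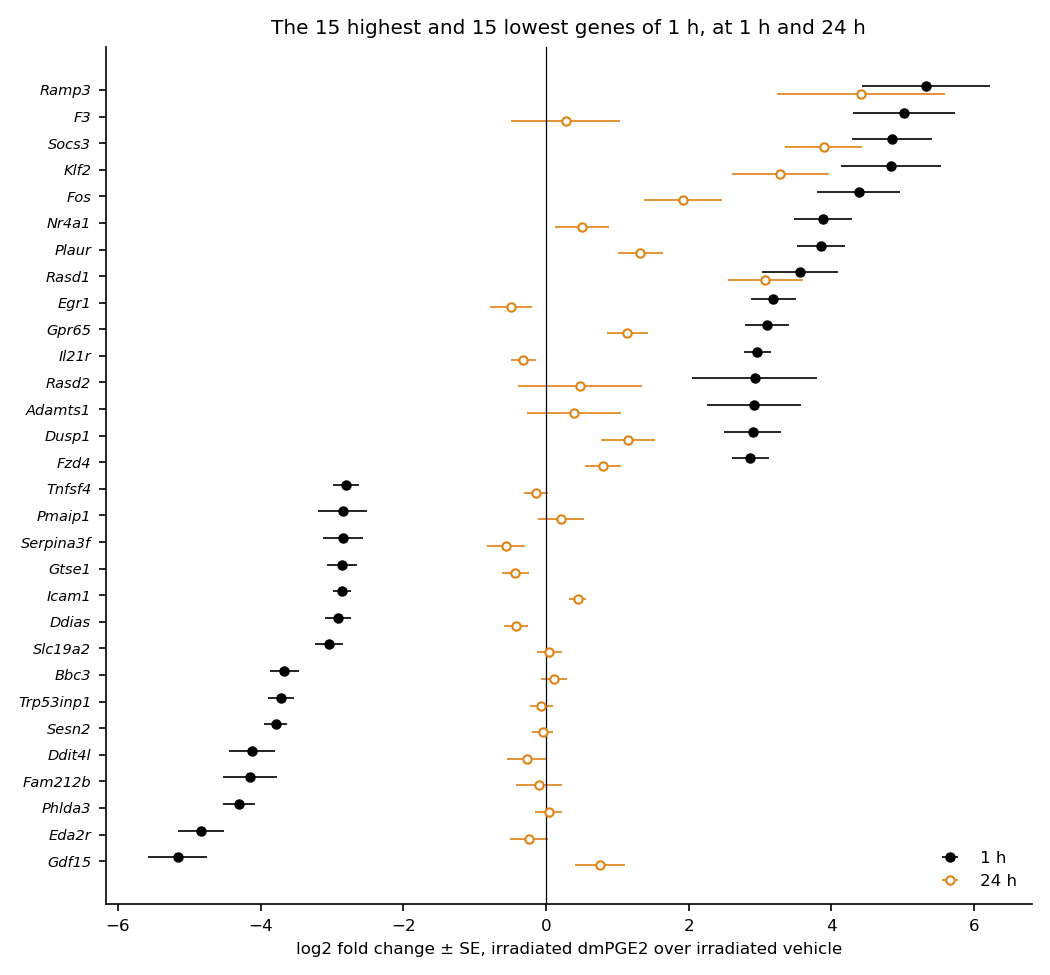
Log2 fold change with its standard error, irradiated dmPGE2 over irradiated vehicle, at 1 h (black) and 24 h (orange, open), for the 15 highest and 15 lowest called genes of 1 h whose log2 CPM averaged 2 or more. Ramp3, Socs3, Klf2 and Rasd1 stay above 3 at both times, while the 15 fallen genes lie between -0.57 (Serpina3f) and 0.75 (Gdf15) at 24 h.

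Radiation in dmPGE2 mice was read from a further comparison: against the dmPGE2 group without radiation, 54 genes were higher in the irradiated dmPGE2 group (0.384%) and 4 lower (0.0284%). That comparison shares the irradiated dmPGE2 libraries with the main one, so values are given side by side only. Nfkbia, an inhibitor of NF-kB, had a median of 603 CPM in irradiated dmPGE2 libraries, 1785 CPM in irradiated vehicle libraries and 144 CPM in dmPGE2 libraries without radiation. Tob1 had 53.8, 256 and 32.4 CPM in the same groups, Irf1 417, 1064 and 199 CPM and Eda2r 3.503, 87.5 and 0.672 CPM. In these 4 genes the irradiated dmPGE2 median lay between the other two, and both differences were called. Dusp5, Dusp2, Vegfa, Pim3 and Socs1 were instead highest in the irradiated dmPGE2 group, and radiation under dmPGE2 raised them by 1.01 ± 0.19, 1.04 ± 0.15, 1.03 ± 0.22, 0.78 ± 0.10 and 0.80 ± 0.18 on the log2 scale. Dusp6 was called in the other direction (log2 fold change -0.61 ± 0.15). For Klf2, Gpr65, Nkx2-3, Hes1, Il21r, Cited2, Tnip3 and Tlr2 radiation under dmPGE2 was not called, with log2 fold changes between -0.35 and 0.38. Not every gene that dmPGE2 raised was so close. Socs3 had 136 to 728 CPM in irradiated dmPGE2 libraries and 53.3 to 273 CPM in dmPGE2 libraries without radiation. Ramp3 had 42.6 to 113 CPM and 20.2 to 63.03 CPM in the same groups. Both genes overlapped between these groups.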

How the data were processed

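RNA from HSC was copied with SMART-Seq v4 and made into Nextera XT libraries, per the labels' protocols; neither step marks strand or molecules. The submitters' processing notes name STAR 2.5.2b, build mm10 and featureCounts of Subread 1.5.1. Deposited values are raw read counts per gene, per the file headers, for 24421 genes and 54 libraries; neither annotation nor strand setting is given in the sources used here. Columns name no sample, so they were placed by group: names without 24h that state IR were read as 1 h, since columns named 24h fill the irradiated groups of that time. 15 columns of mice with neither dmPGE2 nor radiation name no time and were not used. Libraries are numbered within a group in table order.

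Genes were kept by filterByExpr (count minimum 10). edgeR 4.0.16 (R 4.3.3), with TMM scaling and a robust quasi-likelihood fit with 1 mean per group over 39 libraries, gave log2 fold changes, standard errors (the absolute log2 fold change over the square root of F, written after ±) and Benjamini-Hochberg adjusted p over all tested genes. CPM carry TMM factors, except summed markers, and log2 CPM a prior count of 3. The fit was also run on simulated counts drawn independently for each library, which cannot cover variation shared between libraries. DESeq2 1.42.0, other scalings and filters, and fits without single libraries were alternatives. The members and lists were chosen with earlier results of these data known. Named genes are the 15 highest and lowest log2 fold changes among called genes averaging a log2 CPM of at least 2, up to 4 called members a list and direction, the 10 most abundant genes with at least 2-fold change, the sort markers, the 10 smallest p each way, and the 10 highest and lowest outside all lists from a log2 CPM of 4; not all are printed. Dusp6, Jag1, Hoxa9, Hoxa10, Gata2, Lmo2, Tal1, Spi1, Myb, Ripk1, Traf2, Rab27b, Gp5, Zbtb46 and Tspan33 fall outside this rule and were chosen after their values were seen.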

Additional observations from a re-analysis of the deposited data

Results flagged for a closer look

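In 286 groups of 8 libraries, 2 for each gene described here, 1 library at the high or low end lay far from the other 7 in 26, by Dixon's 95% criterion on log2 CPM. Chance gives such a flag in about 1 of 20 groups. The number in brackets is the gap to the nearest library as a share of the group's range. Vehicle library 3 was the highest of its group for Nr4a1 (0.659), Dusp5 (0.593), Dusp16 (0.539), Hoxa9 (0.571), P2ry10 (0.543), Egln3 (0.736), Sgk1 (0.571), Rhob (0.731), Gpr146 (0.603), Flt3 (0.55) and Rab27b (0.679). Other vehicle libraries stood apart for Tnfsf4 (0.617), Fgd5 (0.53) and Procr (0.548). Library 6 of the dmPGE2 group was the lowest for Dusp2 (0.598), Nrarp (0.607), Sgk1 (0.534) and Rhob (0.545). Other dmPGE2 libraries stood apart for Hes1 (0.627), Jag2 (0.614), Nkx2-3 (0.58), Hoxa9 (0.598), Cebpb (0.598), Ripk1 (0.533), Slc3a2 (0.533) and Ctla2a (0.596).

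The effect of dmPGE2 differed between 1 h and 24 h, by edgeR's test of the difference, for 25 of the 30 called genes at either end of the log2 fold changes at 1 h, taken where log2 CPM averaged 2 or more. The log2 fold change at 1 h minus that at 24 h was positive for F3 (4.74), Fos (2.46), Nr4a1 (3.38), Plaur (2.53), Egr1 (3.68), Gpr65 (1.96), Il21r (3.28), Adamts1 (2.53), Dusp1 (1.75) and Fzd4 (2.06). It was negative for Gdf15 (-5.92), Eda2r (-4.59), Phlda3 (-4.34), Fam212b (-4.05), Ddit4l (-3.85), Sesn2 (-3.75), Trp53inp1 (-3.65), Bbc3 (-3.78), Slc19a2 (-3.09), Ddias (-2.49), Icam1 (-3.30), Gtse1 (-2.43), Serpina3f (-2.28), Pmaip1 (-3.06) and Tnfsf4 (-2.67). The genes were chosen for their values at 1 h.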

How the results depend on the processing

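The largest moves came with a stricter question. Against a fold change of 1.5 (glmTreat), 113 genes were higher and 146 lower. With the tag that column names carry taken as a replicate block, 1129 were higher and 1526 lower in the 16 libraries. In the same libraries without it the counts were 998 and 1270. Same-tag pairs of libraries deviated together with correlations between 0.0811 and 0.357, over 0.1 in 7 of the 8 pairs. In each group 6 of the 8 libraries correlated best with their own tag. The main fit did not take the tags as pairs, so variation shared within a tag stays in its spread. Genes lower with radiation under dmPGE2 were 10 by DESeq2, against 4. When 1 library was left out, between 682 and 896 genes were higher and between 867 and 1029 lower. Every other alternative kept the counts within 1.5 times, and other scalings moved the median of all genes by at most 0.0155 on the log2 scale. Of 335 genes taken by the naming rule or described here and called, 205 lost the call against a 1.5-fold change and 52 in at least 1 other alternative; of those described, Jag1 and Irf8 were lost elsewhere. None of them reversed. The cause of these moves was not tested. Reads without molecular tags bound the precision of low counts.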
